A study of Mus musculus with 2 samples.

Results

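Interferon-induced gene families were followed in microglia, the macrophages that reside in brain and spinal cord. The set held 58 of the 34797 gene names on the array, read by 83 of its 55681 probes. A probe was included when its gene name in the array annotation began with Ifit, Ifitm, Oas, Irgm, or Ifi or Gbp followed by a digit, or was Mx1 or Mx2. Rtp4, Isg15, Isg20, Rsad2, Usp18, Bst2, Zbp1, Ddx58, Ifih1, Dhx58, Cmpk2 and Iigp1 were included by name. RefSeq lists Ifi27l1 as Ifi27 and Gbp1 as Gbp2b, and the older names are used here.

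The cells were sorted from spinal cord. There was 1 sample from an atopic diathesis model, a state of heightened readiness for allergy, which the submitters titled activated, and 1 from control mice, titled normal. Each was hybridised to its own single-colour Agilent array. How the model was made, and the strain, age, sex and number of the mice, are not given in the sources used here. With 1 array per group no test between the groups is possible, no p-value is given, and every value describes these samples.

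Interferons are secreted proteins that cells release on meeting foreign or misplaced nucleic acids. Type I interferons bind the Ifnar1 and Ifnar2 receptor and act through Stat2 and Irf9 among others, while interferon gamma binds Ifngr1 and Ifngr2. Both switch on a large set of genes, of which the families described here are the best known. They encode sensors of viral RNA and DNA, enzymes that degrade or block viral RNA, membrane proteins that hinder virus entry or release, and GTPases that attack vacuoles holding microbes. A group of microglia that express such genes is known from infection, ageing and injury.

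On the atopic diathesis array 15389 probes (27.6%) were well above background by the scanner software's own criterion, against 13431 (24.1%) on the control array, and no spot was saturated. Differences are log2 processed signal in atopic diathesis minus control, after each array was scaled by its 75th percentile over the probes well above background on both arrays. On this scale the median of the 11266 probes measured on both arrays was 0.09. The spot error (SD) of a log2 difference was taken from repeated spots of probes well above background on both arrays. It was 0.30 over 37 probes with a mean signal under 100 and 0.13 over 66 brighter probes. These values cover spot error only and leave out dimmer probes and the spread between mice, sorts and RNA amplifications. The ± after a signal is the error that the scanner software attaches to it. All 10 microglia marker genes had a probe on both arrays and no such probe was at least 2-fold apart, but for Itgam that probe shares 20 bases with 72 probes of other names and its other probes were on neither array. Of the 7 monocyte and border macrophage genes and the 7 neutrophil genes none was well above background on either array, and of 8 lymphocyte genes only Nkg7 was, at 63.0 in atopic diathesis and 121 in control. Endothelial markers went both ways, with Pecam1 higher in atopic diathesis by at least 6.96-fold and a Flt1 probe lower by at least 16.7-fold. The other Flt1 probes were on neither array, as were Cldn5 and Cdh5. The summed signal of the endothelial list was 327 in atopic diathesis and 618 in control. That gap rested on the Flt1 probe seen in control, with 5.07 in atopic diathesis and 328 in control. Ly6c1 went both ways, with a difference of -0.95 at the probe on both arrays and at least 2.79-fold higher at the other. The summed signal of the oligodendrocyte genes was 851 in atopic diathesis and 1106 in control. Most of that gap lay at an Mbp probe with 15.8 in atopic diathesis and 267 in control. Mbp was lower by at least 13.5-fold there, with a difference of 0.64 at another probe. Mag was higher by at least 2.68-fold, and Mobp had a probe at least 4.77-fold higher and another at least 4.90-fold lower. The part of these cell types in the results was not tested.

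Among the interferon-induced genes, several antiviral genes were brighter in atopic diathesis microglia. Rtp4, Ifit1 and Isg20 were well above background in atopic diathesis only, and Ifi35, Oas1b, Ifi204, Ifi27l1, Ddx58 and Irgm1 had a probe at least 2-fold higher there. Others went the opposite way: the RNA helicase gene Dhx58 was 7.93-fold lower, Ifit3 was 2.48-fold lower, and Ifi44 was well above background in control only. With some other ways of processing the signals, Ddx58, Irgm1, Ifi27l1 and Ifit3 fell under 2-fold. The other measured Oas1b probes were under 2-fold. Because whole samples were measured, fewer cells that express a gene and less of its RNA per cell cannot be told apart.

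Of the 83 probes, 24 were well above background on both arrays (28.9%, against 20.2% of all probes). A further 11 were well above background in atopic diathesis only (13.3%, against 7.41% of all probes), and 1 in control only (1.20%, against 3.89%). The other 47 (56.6%, against 68.5%) were well above background on neither array. Counted by gene name, 19 genes had a probe measured on both arrays, 9 genes were seen in atopic diathesis only, 1 in control only and 29 on neither. Probes seen on 1 array lay on the atopic diathesis side in 11 of 12 cases, where 65.6% of all such probes did.

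Among the 24 probes measured on both arrays, 6 were at least 2-fold higher in atopic diathesis (the share over all probes was 18.8%) and 2 were at least 2-fold lower (14.9% over all probes). In all 18 of the 24 lay above 0 (54.6% over all probes). Their median difference was 0.44, beside 0.09 for all probes, and they ran from -2.99 to 2.42. The direction of the median rested on the scaling, since the 75th percentile of all probes, which lies among dim signals, put it at -0.14, with 3 of 24 probes at least 2-fold higher (11.0% of all probes) and 5 lower (28.1% of all probes). That scaling also moved the median of all measured probes to -0.50, and on it both medians were negative, the families' being the higher.

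**Figure D1:**
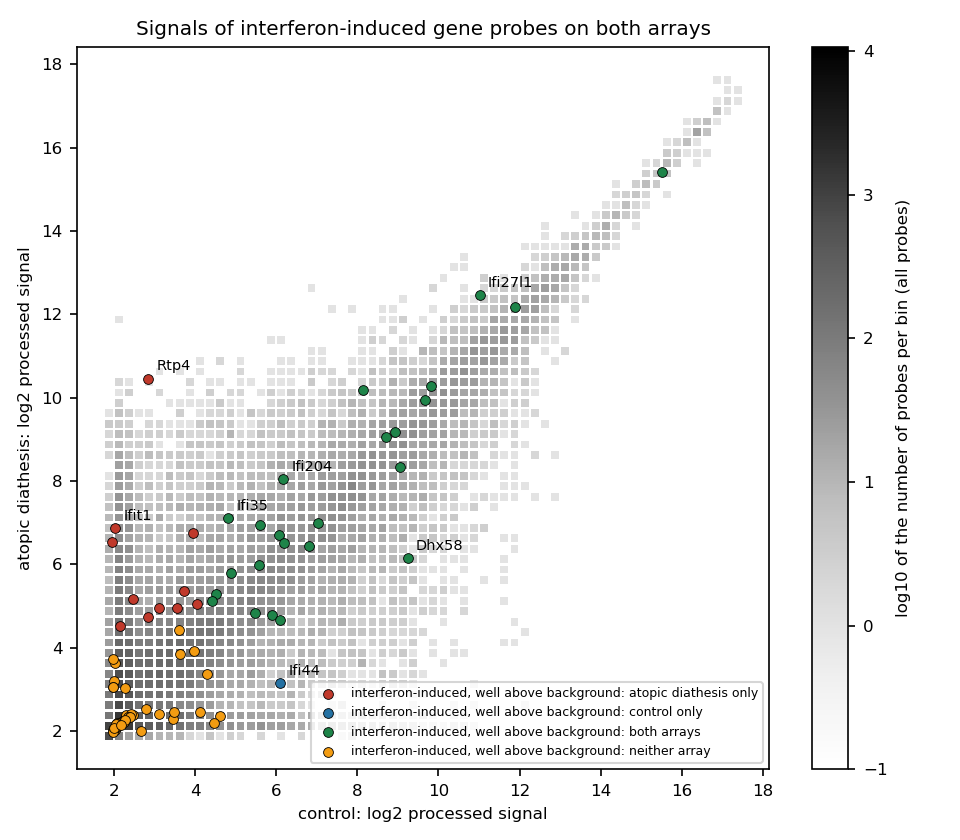
Log2 processed signal in atopic diathesis (vertical axis) against control (horizontal axis). Grey squares count all probes of the array, and coloured points are the 83 probes of interferon-induced genes by where they were well above background; Rtp4 stands highest of the probes seen in atopic diathesis only, and Dhx58 lies furthest to the lower right of those on both arrays.

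The RNA and nucleic acid sensors were all measured. Ddx58, which encodes the viral RNA sensor RIG-I, had a signal of 122 ± 13.0 in atopic diathesis and 48.8 ± 6.45 in control at its brighter probe, a log2 difference of 1.44. Its other probe read 39.1 in atopic diathesis and 23.0 in control, a difference of 0.88. Both Ddx58 probes were thus higher, but the brighter one was under 2-fold with normexp background correction (1.76-fold), uncorrected signals (1.71-fold), the 75th percentile of all probes (1.81-fold) and the authors' series table (1.99-fold). Ifih1, which encodes the long RNA sensor MDA5, read 34.6 ± 5.49 in atopic diathesis and 21.3 ± 4.75 in control, a difference of 0.81, and its other probe was well above background on neither array. Zbp1, a sensor of Z-form nucleic acids, read 536 ± 53.8 in atopic diathesis and 421 ± 42.3 in control at one probe, a difference of 0.46 that turned to -0.12 with the 75th percentile of all probes, and its other probe was on neither array.

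Dhx58 stood apart from its relatives. It encodes LGP2, the RIG-I-like helicase that lacks signalling domains of its own and tunes the other sensors. Its only probe read 70.5 ± 8.20 in atopic diathesis and 606 ± 60.8 in control, a log2 difference of -2.99. The direction held under all 8 alternative settings, with folds between 4.30 and 11.9. The probe is shown because this difference rests on it alone, and no run of 20 bases in it is shared with a probe of another gene name.
Dhx58 probe, mm9 chr11:100556271-100556330, minus strand: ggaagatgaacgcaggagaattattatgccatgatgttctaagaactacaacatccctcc

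The p200 genes encode proteins that bind DNA in the nucleus and cytosol. Ifi204 read 263 ± 26.6 in atopic diathesis and 71.8 ± 8.28 in control at one probe, a log2 difference of 1.99 or 3.96-fold higher. At its other probe Ifi204 read 107.35 ± 11.6 in atopic diathesis and 15.6 ± 4.68 in control, where it was not well above background, so the difference was at least 5.88-fold. Both Ifi204 probes stayed at least 2-fold higher under every alternative setting that gave a value, the lowest being 2.49-fold and at least 2.01-fold. The 2 Ifi204 probes do not overlap. The array annotation assigns them to different transcript records, so it is not shown that they read the same RNA.
Ifi204 probe on both arrays, mm9 chr1:175677647-175677706, minus strand: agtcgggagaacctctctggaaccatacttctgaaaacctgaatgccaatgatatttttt
Ifi204 probe in atopic diathesis only, mm9 chr1:175677552-175677611, minus strand: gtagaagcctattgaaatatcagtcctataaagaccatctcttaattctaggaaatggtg
Ifi203 was well above background at 1 of 4 probes and in atopic diathesis only, with 31.1 ± 5.09 there and 8.69 ± 4.10 in control, at least 1.70-fold higher. Ifi202b was well above background on neither array.

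The gene with the widest gap was Rtp4, a receptor transporter protein gene that interferon strongly induces. Its signal was 1399.8 ± 140.05 in atopic diathesis and 7.23 ± 4.05 in control, at least 76.7-fold higher. A bound, given as "at least", divides the bright signal by the lowest signal well above background on the dim array, 19.8 in control. Of the 4123 probes seen in atopic diathesis only, 6 (0.146%) had a bound as high, Rtp4 included. The Rtp4 bound was at least 21.0-fold with normexp and at least 16.8-fold with uncorrected signals. The gene has 1 probe, which shares no run of 20 bases with a probe of another name.
Rtp4 probe, mm9 chr16:23613668-23613727, plus strand: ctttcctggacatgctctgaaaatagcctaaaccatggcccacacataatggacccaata

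Ifit1 binds viral RNA that lacks the host's cap marks and blocks its translation, and other Ifit proteins join it in complexes. Ifit1 read 116 ± 12.4 in atopic diathesis and 4.08 ± 4.10 in control, at least 6.37-fold higher. Its neighbour on chromosome 19, Ifit3, went the other way, with 25.3 ± 4.77 in atopic diathesis and 67.9 ± 7.84 in control, a log2 difference of -1.31. Ifit2 was well above background on neither array. Ifit1 and Ifit3 have 1 probe each, so their opposite directions rest on the pair printed here. Ifit3 was 1.45-fold lower with normexp and 1.33-fold lower with uncorrected signals, where the Ifit1 bounds were 2.51-fold and 2.20-fold.
Ifit1 probe, mm9 chr19:34723796-34723855, plus strand: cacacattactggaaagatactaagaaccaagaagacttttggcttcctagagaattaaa
Ifit3 probe, mm9 chr19:34663105-34663164, plus strand: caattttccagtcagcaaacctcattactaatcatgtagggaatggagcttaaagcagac

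Isg20, an exonuclease that degrades single-stranded RNA, was seen in atopic diathesis only at both of its probes. One read 93.1 ± 10.1 in atopic diathesis and 3.90 ± 3.91 in control, at least 5.10-fold higher, and the other 40.9 ± 6.21 in atopic diathesis and 13.3 ± 4.73 in control, at least 2.24-fold higher. Of the genes with more than 1 probe, Isg20 alone had every probe seen in atopic diathesis only. With uncorrected signals the bounds were 1.98-fold and 1.27-fold, and the lower one stayed at 2-fold or more under 2 of 7 alternative settings.
Isg20 probe with the higher bound, mm9 chr7:86065136-86065195, plus strand: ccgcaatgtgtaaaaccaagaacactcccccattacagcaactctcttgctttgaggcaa
Isg20 probe with the lower bound, mm9 chr7:86064960-86065019, plus strand: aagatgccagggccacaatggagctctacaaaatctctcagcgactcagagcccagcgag
Rsad2, which encodes the antiviral enzyme viperin, and its genomic neighbour Cmpk2, a mitochondrial nucleotide kinase, were well above background on neither array. Rsad2 read 5.53 in atopic diathesis and 17.5 in control.

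The ubiquitin-like modifier gene Isg15 and Usp18, the protease that removes it from proteins, were both seen in atopic diathesis only, near background. Isg15 read 30.9 ± 6.12 in atopic diathesis and 11.8 ± 5.45 in control, at least 1.69-fold higher, and its other probe was well above background on neither array. Usp18 read 26.4 ± 5.46 in atopic diathesis and 7.23 ± 4.82 in control, at least 1.45-fold higher. The Isg15 probe shares the 35 bases in capitals with a probe of Gm9706, so the signal could come from either.
Isg15 probe, mm9 chr4:155573649-155573708, minus strand: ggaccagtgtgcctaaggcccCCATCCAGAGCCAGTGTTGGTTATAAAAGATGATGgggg
Mx1, a dynamin-like GTPase that blocks influenza virus, read 23.0 ± 4.68 in atopic diathesis and 4.47 ± 4.13 in control, at least 1.26-fold higher, and Mx2 was well above background on neither array. Usp18 and Mx1 had no bound above 1 with the 75th percentile of all probes, quantile normalization or the series table. Altogether 7 of the 11 probes seen in atopic diathesis only had a signal under 50 there (2171 of 4123 over all probes seen there only), and 5 had a bound of at least 2-fold (45.5%, against 63.0% of all probes seen there only).

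**Figure D2:**
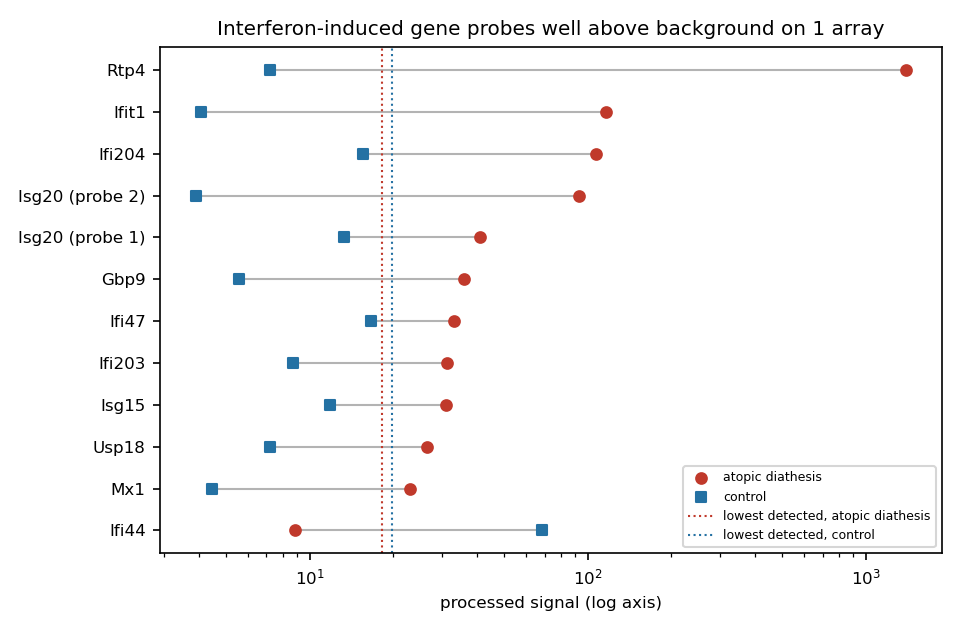
Processed signal (log axis) of the 12 probes of interferon-induced genes that were well above background on 1 array, with circles for atopic diathesis, squares for control and dotted lines at the lowest signal well above background on each array. All but Ifi44 are brighter in atopic diathesis, and Rtp4 at 1399.8 lies far to the right of the others.

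Active 2'-5' oligoadenylate synthetases sense double-stranded RNA and make the messenger that activates RNase L. The array does not show which of the Oas names below encode an active enzyme. Of 12 Oas names, Oas1b and Oas1d were measured on both arrays and the other 10 (Oas1a, Oas1c, Oas1e, Oas1f, Oas1g, Oas1h, Oas2, Oas3, Oasl1 and Oasl2) were well above background on neither. Oas1b, known as a flavivirus resistance gene of mice, had 3 measured probes. One read 1153 ± 115 in atopic diathesis and 284 ± 28.7 in control, a log2 difference of 2.14 or 4.40-fold higher, which was 2.94-fold at the lowest of 8 alternative settings. The other 2 read 1242 and 4589 in atopic diathesis and 898 and 3816 in control, with differences of 0.58 and 0.38, of which the second turned to -0.20 and the first became 0.0005 with the 75th percentile of all probes. These 2 share the 42 bases in capitals and are no separate readings, whereas the first does not overlap them.
Oas1b probe with the larger difference, mm9 chr5:121273890-121273949, plus strand: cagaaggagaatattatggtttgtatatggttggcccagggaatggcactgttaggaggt
Oas1b probe, difference 0.58, mm9 chr5:121274126-121274185, plus strand: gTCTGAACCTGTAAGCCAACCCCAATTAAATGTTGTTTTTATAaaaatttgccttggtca
Oas1b probe, difference 0.38, mm9 chr5:121274109-121274168, plus strand: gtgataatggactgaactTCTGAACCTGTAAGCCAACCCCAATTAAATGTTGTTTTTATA
The 3 Oas1b differences spanned 1.7545 on the log2 scale, more than repeated spots differ, so the size of the Oas1b difference depended on the probe. Why the probes differed was not tested. Oas1d, known for its role in the mouse oocyte, read 127 in atopic diathesis and 132 in control, a difference of 0.06 that was negative under the 5 other scalings.

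The guanylate-binding proteins coat vacuoles and cytosolic bacteria in cells exposed to interferon gamma. Of 11 Gbp names 8 were well above background on neither array (Gbp1, Gbp2, Gbp3, Gbp4, Gbp6, Gbp7, Gbp8 and Gbp11). Gbp5 read 105 ± 11.4 in atopic diathesis and 67.5 ± 8.13 in control at one probe, a difference of 0.75, and its other probe was on neither array. Gbp10 read 28.3 ± 5.94 in atopic diathesis and 44.4 ± 6.61 in control, a difference of -0.54, at a probe that the array annotation also assigns to a Gbp6 transcript. Gbp9 was seen in atopic diathesis only, with 36.0 ± 5.64 there and 5.57 ± 4.23 in control, at least 1.97-fold higher. On the scale used here no Gbp probe had a difference or a bound of 2-fold, though the bound of Gbp9 is a lower limit only. Gbp10 passed 2-fold lower with the 75th percentile of all probes (-1.12), quantile normalization (-1.09) and the series table (-1.09).

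The immunity-related GTPases act with the guanylate-binding proteins on the same vacuoles. Those taken in here, Irgm1, Irgm2, Iigp1 and Ifi47, were each well above background on at least 1 array. Their measured probes lay above 0, but those of Irgm2, Iigp1 and the brighter one of Irgm1 turned negative (-0.06, -0.21 and -0.17) with the 75th percentile of all probes, and the last also with quantile normalization and the series table (-0.03 each). Irgm1, a regulator of the other GTPases, read 55.5 ± 7.04 in atopic diathesis and 29.6 ± 5.19 in control at one probe, a difference of 1.02. The other Irgm1 probe read 90.9 ± 9.94 in atopic diathesis and 73.9 ± 8.36 in control, a difference of 0.41. The first was still at least 2-fold under 1 of 8 alternative settings and 1.34-fold at the lowest, so Irgm1 sat at the threshold. Irgm2 differed by 0.52, and the effector GTPase gene Iigp1 by 0.37 at a probe with signals of 582 and 487 in atopic diathesis and control, while its other probe was on neither array. Ifi47 was seen in atopic diathesis only, with 33.2 ± 5.34 there and 16.6 ± 4.51 in control, at least 1.82-fold higher. Of the genes of the same class that the name rule does not take in, none had a difference or a bound of 2-fold. Igtp read 212 in atopic diathesis and 372 in control, a difference of -0.69. A Tgtp2 probe was seen in control only, at least 1.58-fold lower. The other Tgtp2 probe was on neither array, with 12.8 in atopic diathesis and 5.26 in control, as were Tgtp1 and Irgc1.

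**Figure D3:**
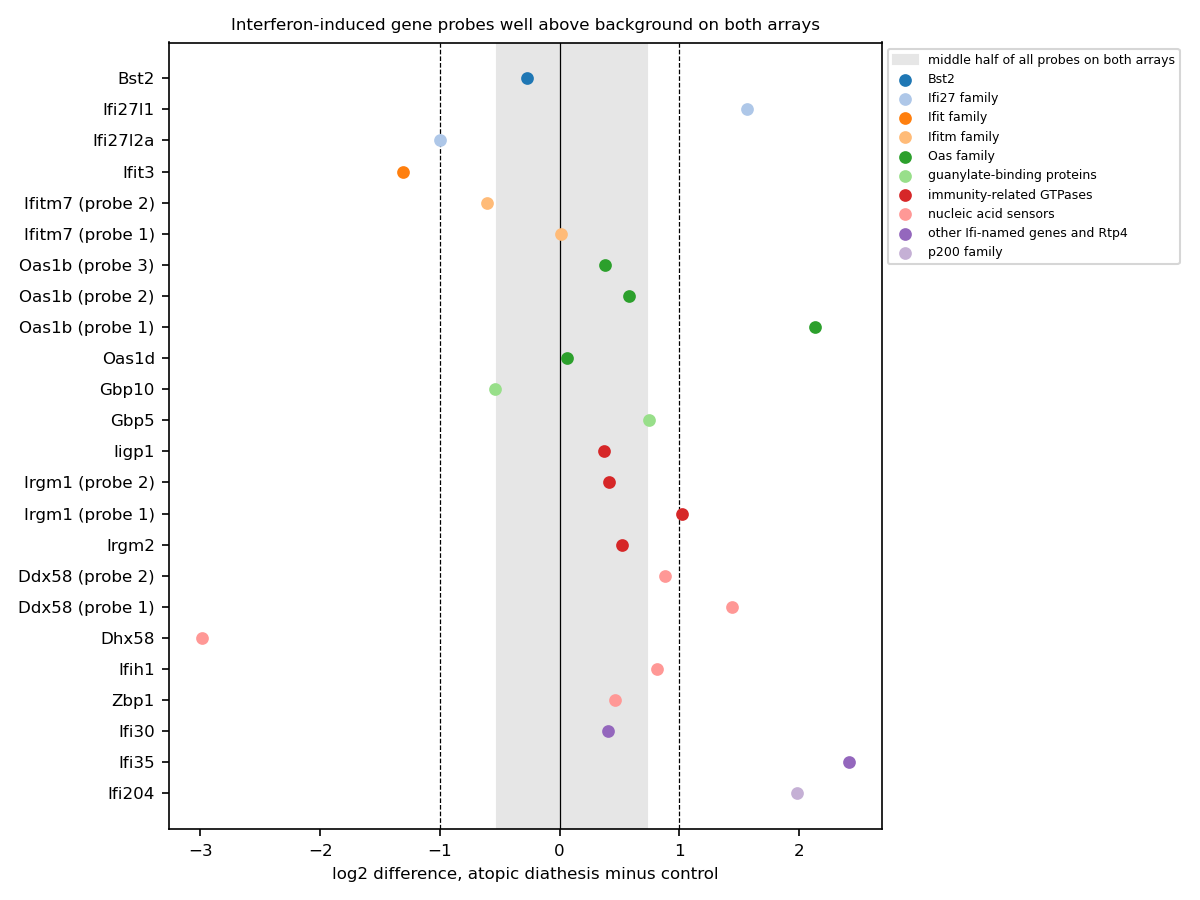
Log2 difference, atopic diathesis minus control, of the 24 probes of interferon-induced genes measured on both arrays, coloured by family. Dashed lines mark 2-fold, and the grey band spans the 25th to the 75th percentile of all measured probes; 6 probes lie right of the upper line, Ifi35 furthest, and Dhx58 lies at -2.99.

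Membrane proteins that restrict virus entry and release were mostly dim. Of 6 Ifitm names, Ifitm7 was measured and Ifitm1, Ifitm2, Ifitm3, Ifitm5 and Ifitm6 were well above background on neither array. One Ifitm7 probe read 320 ± 32.3 in atopic diathesis and 530 ± 53.1 in control, a difference of -0.61, or -1.19 with the 75th percentile of all probes, and it shares 20 bases with a Gal3st2 probe. The other read 43575 and 46831 in atopic diathesis and control, a difference of 0.01 with no steady direction across scalings, and the 32 bases in capitals, a GT repeat, share a run of 20 bases with 75 probes of other names, so that signal cannot be assigned to Ifitm7.
Ifitm7 probe with the repeat, mm9 chr16:13982912-13982971, minus strand: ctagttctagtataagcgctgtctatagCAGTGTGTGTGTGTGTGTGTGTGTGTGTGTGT
Bst2, or tetherin, which holds budding virus at the cell surface, read 86.2 ± 10.04 in atopic diathesis and 113 ± 12.3 in control, a difference of -0.28.

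Ifitm3, which blocks virus entry from endosomes, was printed 10 times on each array and so shows the spread between spots. In each array all 10 spots are given, of which 1 in atopic diathesis carries the scanner software's outlier flag. The spots ran from 5.80 to 28.7 with a median of 9.87 in atopic diathesis, and from 14.7 to 28.8 with a median of 18.9 in control. The ranges overlap, and 2 of 10 spots in atopic diathesis and 3 of 10 in control were well above background. The SD between spots was 0.87 on the log2 scale in atopic diathesis and 0.31 in control. Ifitm3 therefore has no measured difference, and its spots show how far a signal under 30 can scatter within 1 array.

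**Figure D4:**
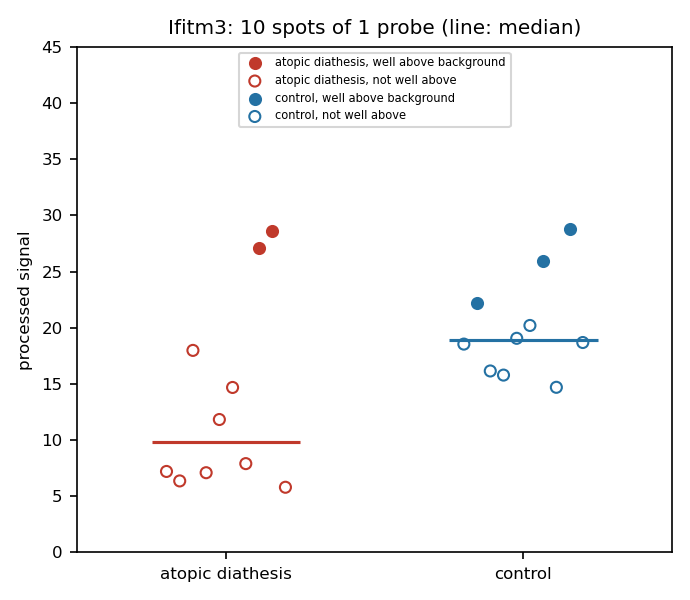
Processed signal of the 10 spots of the Ifitm3 probe in atopic diathesis (left) and control (right), filled where the spot was well above background, with a line at the median. The spots overlap between the arrays, with medians of 9.87 and 18.9.

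The remaining genes carry interferon in their names with varied functions. Ifi35, an interferon-induced leucine zipper protein, read 139 ± 14.5 in atopic diathesis and 28.04 ± 5.06 in control, a log2 difference of 2.42 or 5.35-fold higher, and 2.26-fold at the lowest of 8 alternative settings. Ifi27l1, a small mitochondrial membrane protein gene, read 5651 ± 565 in atopic diathesis and 2074 ± 207 in control, 2.95-fold higher, and 1.97-fold with the 75th percentile of all probes. Its relative Ifi27l2a read 27.6 ± 5.40 in atopic diathesis and 59.6 ± 7.69 in control, a difference of -0.997, just short of 2-fold, at a probe that shares 20 bases with one of Akr1c19, and Ifi27l2b was on neither array. Ifi27l2a lay past 2-fold lower under the 5 other scalings (-1.13 to -1.58), but at -0.23 with normexp and -0.16 with uncorrected signals. Ifi30, the lysosomal thiol reductase of antigen processing, read 988 ± 98.9 in atopic diathesis and 810 ± 81.1 in control, a difference of 0.40 that turned to -0.18 with the 75th percentile of all probes. Ifi44, a cytoplasmic protein gene, was the only one seen in control only, with 8.90 ± 4.37 in atopic diathesis and 68.4 ± 8.07 in control, at least 3.47-fold lower. Among all probes seen in control only, 52.7% had a bound of at least 2-fold, and with normexp and uncorrected signals that of Ifi44 was at least 1.53-fold and at least 1.36-fold.

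What the genes share beyond their names was looked for in their start windows, the 250 bases before to 50 after each RefSeq gene start (GRCm38.p6). The letters GAAA, any 2 bases and GAAA again, the core of the interferon-stimulated response element, were searched on both strands, and matches were allowed to overlap each other or the other motif. Windows were found for 37 of the gene names, but not for Rtp4, Dhx58, Ifi204, Ifi27l1, Oas1b, Usp18, Mx1, Gbp9, Zbp1 or Iigp1, among others. The motif was present in 21 of the 37 (56.8%), against 1079 of 27025 genes (3.99%). The set was chosen as interferon-induced genes, so a high share follows from that choice and is no finding of these data. Genes of 1 family are also not separate cases. By detection, the motif was present in 3 of 5 genes seen in atopic diathesis only and 7 of 10 measured on both arrays. It was present in 0 of 1 seen in control only and 11 of 21 on neither array. These counts cover 5 of the 9 genes seen in atopic diathesis only and 10 of the 19 measured on both arrays. The motif was thus present in genes that were higher and in genes not detected. Of the genes at least 2-fold lower, Ifit3 held it, Ifi44 did not and Dhx58 had no window. The palindrome TTCNNNGAA, known from promoters that respond to interferon gamma, was present in 11 of 37 (29.7%), against 9.55% of genes.

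The windows of 4 genes are shown, with matches to this GAAA motif on either strand in capitals. Ifit1 and Isg15 were seen in atopic diathesis only, Ddx58 was higher there, and Ifit3 was lower. The motif is present in each of these windows, whichever way the signal went.
Ifit1 window, GRCm38.p6 chr19:34640639-34640938, plus strand: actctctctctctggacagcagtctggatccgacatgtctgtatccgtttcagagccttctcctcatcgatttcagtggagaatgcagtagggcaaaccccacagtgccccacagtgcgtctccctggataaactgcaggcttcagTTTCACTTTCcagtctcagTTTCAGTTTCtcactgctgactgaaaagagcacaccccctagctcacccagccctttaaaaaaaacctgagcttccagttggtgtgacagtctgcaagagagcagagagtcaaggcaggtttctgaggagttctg
Isg15 window, GRCm38.p6 chr4:156200769-156201068, minus strand: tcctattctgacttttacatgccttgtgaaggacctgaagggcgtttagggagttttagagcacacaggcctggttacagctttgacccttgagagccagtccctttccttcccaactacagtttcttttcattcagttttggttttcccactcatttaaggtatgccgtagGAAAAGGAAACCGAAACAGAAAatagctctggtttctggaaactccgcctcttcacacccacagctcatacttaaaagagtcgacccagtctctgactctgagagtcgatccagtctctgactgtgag
Ddx58 window, GRCm38.p6 chr4:40239776-40240075, minus strand: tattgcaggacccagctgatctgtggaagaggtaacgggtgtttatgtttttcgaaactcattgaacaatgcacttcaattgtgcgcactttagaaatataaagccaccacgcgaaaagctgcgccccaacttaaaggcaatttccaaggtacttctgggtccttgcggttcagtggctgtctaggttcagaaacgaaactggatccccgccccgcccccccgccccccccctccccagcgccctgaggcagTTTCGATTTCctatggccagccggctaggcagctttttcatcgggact
Ifit3 window, GRCm38.p6 chr19:34583279-34583578, plus strand: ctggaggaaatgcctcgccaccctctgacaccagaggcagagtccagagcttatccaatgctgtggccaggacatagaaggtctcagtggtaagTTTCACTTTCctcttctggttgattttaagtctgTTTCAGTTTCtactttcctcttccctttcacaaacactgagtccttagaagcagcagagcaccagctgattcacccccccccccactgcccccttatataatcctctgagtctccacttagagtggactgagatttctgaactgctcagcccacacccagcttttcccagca
Over all windows of the members there were 32 matches, 28 of which began before the gene's start, at a median of -61.5 bases from it. The earliest began at -165 and the last at 32.

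**Figure D5:**
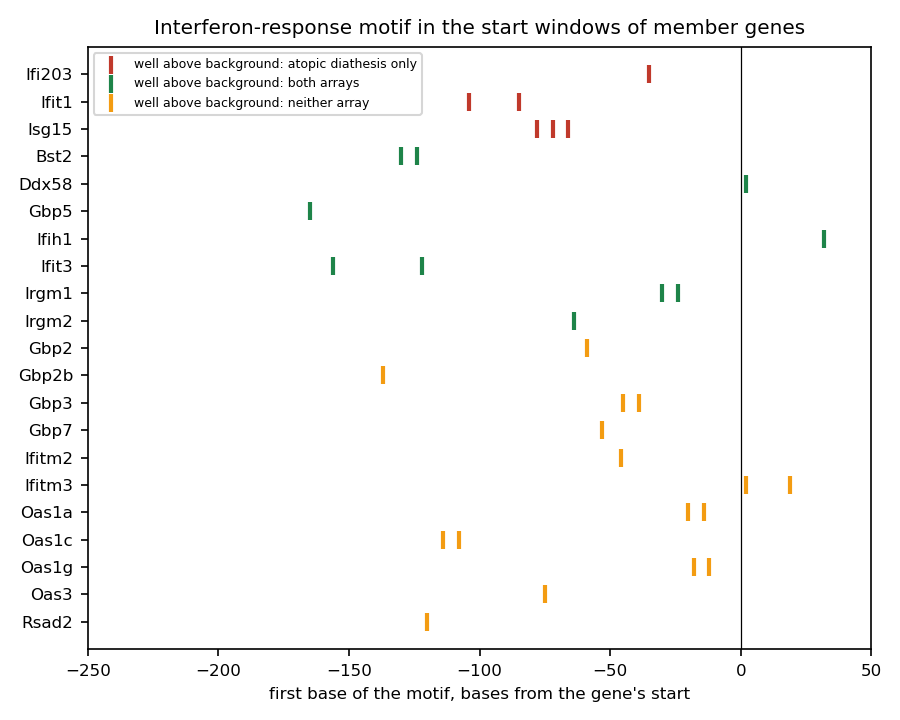
First base of each GAAA motif match on either strand, in bases from the gene's start, in the 21 genes that hold the motif, coloured by where their probes were well above background. Most matches lie left of the start in all 3 groups of genes.

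The 5 interferon receptor genes that were measured were higher in atopic diathesis microglia, and Il28ra, the interferon lambda receptor, was on neither array. Ifngr1 and Ifngr2, the chains of the interferon gamma receptor, read 6633 and 12346 in atopic diathesis and 2979 and 5683 in control, with log2 differences of 1.27 and 1.24. Ifnar1 differed by 0.95, with 142 in atopic diathesis and 79.5 in control. Another Ifnar1 probe was seen in atopic diathesis only, at least 4.03-fold higher, and a further one was on neither array. Ifnar2 read 82.8 in atopic diathesis and 53.0 in control, a difference of 0.76, and Il10rb, shared by the interferon lambda and interleukin-10 receptors, differed by 0.91. All 5 measured receptor probes lay above 0 (54.6% over all probes), and 2 were at least 2-fold higher (18.8% over all probes). Their median was 0.95. The receptor values were not recomputed with other scalings. The 75th percentile of all probes lowers every difference equally, moving the median of all measured probes from 0.09 to -0.50. That shift puts Ifngr1 and Ifngr2 under 2-fold. The interferon genes themselves were on neither array in 8 of 9 cases, the exception being Il28b, an interferon lambda gene, with 55.4 in atopic diathesis and 80.4 in control, a difference of -0.42.

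Downstream of the receptors the transducers went both ways. Of 13 signalling genes 8 had measured probes. Of these 9 probes 2 were past 2-fold upwards (18.8% over all probes) and 1 past it downwards (14.9% over all probes). Their median was 0.23. The transcription factor genes Irf3 (2.25) and Irf1 (1.25, with another probe on neither array) were higher and the phosphatase gene Ptpn6 (-1.03) lower. A probe of Pias1, a SUMO ligase gene, was at least 6.60-fold higher while its 2 measured probes read -0.54 and -0.71. Stat2 read 137 in atopic diathesis and 99.0 in control, a difference of 0.58. Irf7 and Irf9, themselves induced by interferon, were well above background on neither array. Irf7 read 4.09 in atopic diathesis and 4.16 in control, and Irf9 read 16.5 in atopic diathesis and 4.07 in control. Of 14 sensing genes 9 had measured probes. Of these 14 probes 4 were past 2-fold upwards (18.8% over all probes) and 2 past it downwards (14.9% over all probes). Their median was 0.15. The DNA sensor gene Cgas differed by 4.43 and 2.50 at 2 probes but by -0.37 at the third, and its adaptor Tmem173, or STING, by 1.34. The kinase gene Tbk1 (1.06) was higher, the nucleotide hydrolase gene Samhd1 was lower at both measured probes (-2.26 and -1.35), and the RNA sensor adaptor Mavs was at least 3.90-fold lower.

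Other interferon-induced genes outside these families went both ways where measured on both arrays. Of 43 genes, 26 had measured probes. Of these 31 probes 7 were past 2-fold upwards (18.8% over all probes) and 5 past it downwards (14.9% over all probes). Their median was 0.04. Of the list's 13 probes seen on 1 array, 10 were seen in atopic diathesis and 3 in control. Over all such probes 65.6% were seen in atopic diathesis. Mov10, an RNA helicase (2.74), Slfn8 (2.35), the immunoproteasome subunit Psmb8 (2.18), Slfn2 (1.46), Ly6e (1.25) and Phf11d (1.22) were higher. Xaf1, an antagonist of apoptosis inhibitors (-3.36), Sp110 (-1.63), Nmi (-1.24) and Lgals3bp (-1.23) were lower, and Gvin1 went both ways at its probes (1.09 and -1.85). Slfn8 and Xaf1 each had another probe, which was on neither array. Lgals3bp differed by -0.60 at its other probe. Sp110 differed by -0.97 and 0.15 at its other probes, the latter sharing 20 bases with 78 probes of other names. Of genes with bounds, Phf11b was at least 9.34-fold higher and Znfx1 at least 2.22-fold. The RNA-editing enzyme gene Adar was at least 5.64-fold higher at one probe but differed by -0.24 at the other. Herc6, the ligase that attaches Isg15 to proteins in mice, was higher at one probe, by at least 12.3-fold, and lower at another, by at least 7.92-fold. Pml was likewise higher at one probe (at least 3.15-fold) and lower at another (at least 2.57-fold). Opposite probes of Herc6, Pml, Gvin1 and Adar came from the same samples, so a value at 1 probe does not stand for the gene as a whole.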

How the data were processed

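Per the labels' protocols, total RNA was extracted with TRIzol and a column kit, amplified from a low input and labelled with Cy3. The authors deposited 1 scanner file per array, whose values are fluorescence intensity on a linear scale, detrended and background-subtracted by Agilent Feature Extraction (version 10.7.1.1 per the file headers, 9.5.1.1 per the submitters' processing notes). They also deposited a series table of intensity, of which no source used here states the normalization. Its medians were 6.64 in each column and its ranks equal those of the scanner signals, and as it holds no ratios its direction is not in doubt. Its median difference over probes on both arrays was -0.1648, beside -0.1641 with quantile normalization, so these settings are not separate checks. Both arrays lie on the same slide, so group and slide position coincide and cannot be told apart.

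The 3671 control spots and the outlier spots (122 on the atopic diathesis array and 136 on the control array) were left out, and log2 signals of a probe's spots were averaged. A probe counted as well above background where the scanner software's flag was set in a share of at least 0.5 of its usable spots. Signals were scaled by the 75th percentile over probes well above background on both arrays (724 in atopic diathesis and 784 in control), since under 28% of probes were detected. A bound divides the bright signal by a floor on the dim array, both scaled: its lowest detected signal (18.2 in atopic diathesis, 19.8 in control) or the probe's own signal there, whichever is higher. No exon annotation was used, because the probe coordinates are on mm9 and the RefSeq tables on GRCm38.p6. Of the 83 probes, 67 matched a RefSeq gene by accession, and the sequences of start windows are RefSeq's. Every member gene detected on an array is named with its values. Other genes are named where at least 2-fold apart, plus the interferon receptor chains, Stat2, Irf7 and Irf9. Igtp, Tgtp1, Tgtp2 and Irgc1 are named in addition, as genes of the same class as Irgm1. A gene of the signalling list is not reported here. Members and lists were chosen with earlier results of these data known. Calculations used Python 3.11.15 and R 4.3.3 with limma 3.58.1 (normexp, offset 50), and were tested on simulated data. The number of arrays limits the precision.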

Additional observations from a re-analysis of the deposited data

How the results depend on the processing

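Probes at least 2-fold higher numbered 6 and lower 2. The 75th percentile of all probes gave 3 and 5 with a median of -0.14 instead of 0.44, and for lower probes quantile normalization and the authors' series table gave 4 each, and normexp and uncorrected signals 1 each. With probes well above background on at least 1 array, 17 were higher and 3 lower, with a median of 0.85, which the filter itself fixes, since the 11 added higher probes pass it through atopic diathesis alone. With no background filter 22 were higher and 7 lower, with a median of 0.17, and among the brighter probes on both arrays 2 were higher and 1 lower. Among probes seen in control only, the count with a bound of at least 2-fold was 0 with normexp and with uncorrected signals, against 1, and among those seen in atopic diathesis only it was 3 with uncorrected signals, against 5. It was 11 where a flag at any spot sufficed, a setting chosen after seeing the data that lowers the lowest detected control signal to 12.045. Apart from that the causes were not tested. Over all measured probes the share of higher among 2-fold calls was 55.7%, but 28.2% with the 75th percentile of all probes and 41.8% with quantile normalization and with the series table. No probe of the interferon-induced families at least 2-fold apart changed direction under any alternative, and the other pathway genes were not recomputed. For the family probes at least 2-fold higher, no other scaling or background correction gave a larger fold or bound than the one printed, whereas the looser background filters gave larger values for probes with a bound. The detection flags do not depend on the scaling, and loess gives no bounds. No paired analysis was possible because each group has 1 array. Many signals lie near background, which limits what their differences can show.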
